A study of Mus musculus with 48 samples.

Results

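De novo fatty acid synthesis was followed through 10 mouse genes: Fasn, Acaca, Acly, Elovl6, Scd1, Slc25a1, Me1, Thrsp, Srebf1 and Mlxipl. They were chosen by name as the pathway's enzymes, its citrate carrier and the transcription factors known to drive it, and are 10 of the 55487 genes in the table. Each of the 10 reached 1 TPM (a transcript level corrected for gene length and library size) in all 48 libraries. All 10 were therefore among the 20209 genes tested.

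The libraries came from the thoracic mammary gland, taken whole, of 2 mouse models. Both carry MMTV-rtTA, in which a viral promoter active mainly in mammary epithelium makes an activator that doxycycline switches on, whereas the RNA here is that of the whole gland with its fat pad. The first model also carries tet-op-Esr1, for estrogen receptor alpha, and the second tet-op-CYP19A1, for aromatase, the enzyme that makes estrogens. Each model was sampled in 8 groups of 3 libraries. Glands with no transgene induction were from mice of 12, 18 or 24 months. Glands induced for 1 week were from mice of 12 or 18 months, those induced for 6 or 12 months from mice of 24 months, and those induced for 18 months from mice of 30 months. No uninduced 30-month group and no doxycycline group without a responder transgene was analysed here. The mouse Esr1 transcript ranged from 5.61 to 25.9 TPM over the libraries and did not pass the test in any of the 4 Esr1 induction comparisons (adjusted p between 0.763 and 1). The mouse Cyp19a1 transcript ranged from 0 to 0.29 TPM, so these values do not show whether the CYP19A1 transgene was induced. Replicates are named biological in the labels, which do not state that each came from its own mouse, and p-values measure only the spread between the libraries given.

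Libraries held from 11028 to 17605 genes at 1 TPM or more. In 9 libraries, genes that collect reads of ribosomal RNA held over 10% of TPM, and 7 of these were CYP19A1 libraries, 6 of them from 12- or 18-month mice. No Esr1 library of those ages was above 3.42%. The summed level of 10 skeletal muscle markers ranged from 422 to 45052 TPM over the Esr1 12- and 18-month libraries and from 182 to 28808 TPM over those of CYP19A1. White adipocyte and luminal epithelial markers were present in every library. The way samples are titled changes between 18 and 24 months of age, and if a batch lies behind that change, it and age cannot be told apart.

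Fatty acid synthesis turns spare carbohydrate into lipid. Citrate leaves the mitochondrion through the carrier Slc25a1, Acly splits it to acetyl-CoA, Acaca carboxylates that to malonyl-CoA, and Fasn builds palmitate from both, using NADPH that Me1 supplies in part. Elovl6 lengthens palmitate to stearate and Scd1 puts in the double bond of oleate. Srebf1, which responds to insulin, and Mlxipl (ChREBP), which responds to glucose, are transcription factors that raise these genes, and Thrsp (Spot 14) promotes synthesis in fat and in the mammary gland. In this tissue the pathway runs in the adipocytes of the fat pad and, during lactation, in the milk-secreting epithelium.

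The promoters of 4 of the genes are shown. Of these, Fasn, Acly and Slc25a1 are 3 of the genes that changed with age in the Esr1 glands, while Mlxipl did not pass the test there. Acaca and Elovl6, which changed with age as well, are not shown. Each line gives the 130 bases before an annotated start from RefSeq on build GRCm38.p6, read along the gene's own strand. The windows lie at chr11:120824548-120824677 (minus strand) for Fasn, chr11:100528001-100528130 (minus strand) for Acly, chr16:17928220-17928349 (minus strand) for Slc25a1 and chr5:135089760-135089889 (plus strand) for Mlxipl. Capitals mark the CCAAT box (CCAAT, the letters NF-Y binds), the GC box (GGGCGG, those Sp1 binds) and the E-box (CACGTG), on either strand.
Fasn: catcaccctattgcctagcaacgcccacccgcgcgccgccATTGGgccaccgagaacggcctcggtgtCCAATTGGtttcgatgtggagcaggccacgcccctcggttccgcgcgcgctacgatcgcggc
Acly: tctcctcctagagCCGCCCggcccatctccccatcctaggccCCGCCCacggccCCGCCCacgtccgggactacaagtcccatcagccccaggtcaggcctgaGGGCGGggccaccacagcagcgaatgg
Slc25a1: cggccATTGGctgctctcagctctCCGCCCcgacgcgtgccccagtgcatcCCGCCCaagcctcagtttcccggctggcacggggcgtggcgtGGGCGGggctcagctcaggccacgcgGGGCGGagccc
Mlxipl: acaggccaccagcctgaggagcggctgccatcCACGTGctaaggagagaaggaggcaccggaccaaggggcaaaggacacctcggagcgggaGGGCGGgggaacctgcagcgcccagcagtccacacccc

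Counted back from the start within these 130 bases, Fasn held CCAAT at -90, -62 and -59, and the last 2 overlap in a palindrome. Acly held GGGCGG at -117, -88, -76 and -27. Slc25a1 held CCAAT at -125 and GGGCGG at -106, -79, -37 and -11, and Mlxipl held CACGTG at -98 and GGGCGG at -38. Farther out, Slc25a1 held CACGTG at -239 and this start of Mlxipl held CCAAT at -173 and GGGCGG at -188. RefSeq promoter entries were found for 9 of the 10 genes, 13 entries in all, and 250 bases before each start were searched on both strands. CCAAT was present in 7 of the 13 entries, against 33.8% of all 32851 mouse promoter entries of that length. GGGCGG was present in 6 of 13, against 32.7%, and CACGTG in 2 of 13, against 6.02%. The sterol regulatory element letters TCACNCCAC were present in 1 of 13 entries, another start of Mlxipl, against 1.05%. None of these motifs was present in the entries of Acaca and Elovl6, so the windows searched for the genes that fell with age do not all hold them. The Acaca entry ends at base 84195437, inside the gene, which begins at base 84129672. The bases before that gene start were therefore not searched. These matches describe letters in a window and no binding was measured.

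In the annotation release that the table's identifiers match (GENCODE M21, GRCm38), 4 of the 10 genes lie on chromosome 11. Fasn (ENSMUSG00000025153.9) spans bases 120805846 to 120824547 on the minus strand and Acaca (ENSMUSG00000020532.18) bases 84129672 to 84401651 on the plus strand. Acly (ENSMUSG00000020917.17) spans bases 100476353 to 100528000 and Srebf1 (ENSMUSG00000020538.15) bases 60199089 to 60222581, both on the minus strand. Elovl6 (ENSMUSG00000041220.10) is on chromosome 3 and Scd1 (ENSMUSG00000037071.3) on chromosome 19.

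The genes differed widely in level. Scd1 was the most abundant, with a mean of 1601 TPM over the 48 libraries, the rank of 32 among all genes of the table. Fasn followed with a mean of 512 TPM, then Thrsp with 223, Acly with 133 and Acaca with 123 TPM. Means of Srebf1 (83.8 TPM), Slc25a1 (68.2 TPM) and Me1 (54.0 TPM) were lower, and those of Elovl6 (26.7 TPM) and Mlxipl (20.7 TPM) the lowest of the 10. The means of Acly and Acaca, neighbours in this order, differed by less than their SDs over libraries (102 and 82.7 TPM). So did those of Slc25a1 and Me1 (50.9 and 41.8 TPM). These SDs span all ages and both models, and the order of the genes within a library was not tested. The spread between libraries followed another order. Elovl6 varied most, from 2.08 to 145 TPM, a ratio of 69.8, and Fasn next, from 39.0 to 1647 TPM, a ratio of 42.2. Srebf1, the transcription factor, varied least, from 35.7 to 158 TPM, a ratio of 4.42.

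**Figure D1:**
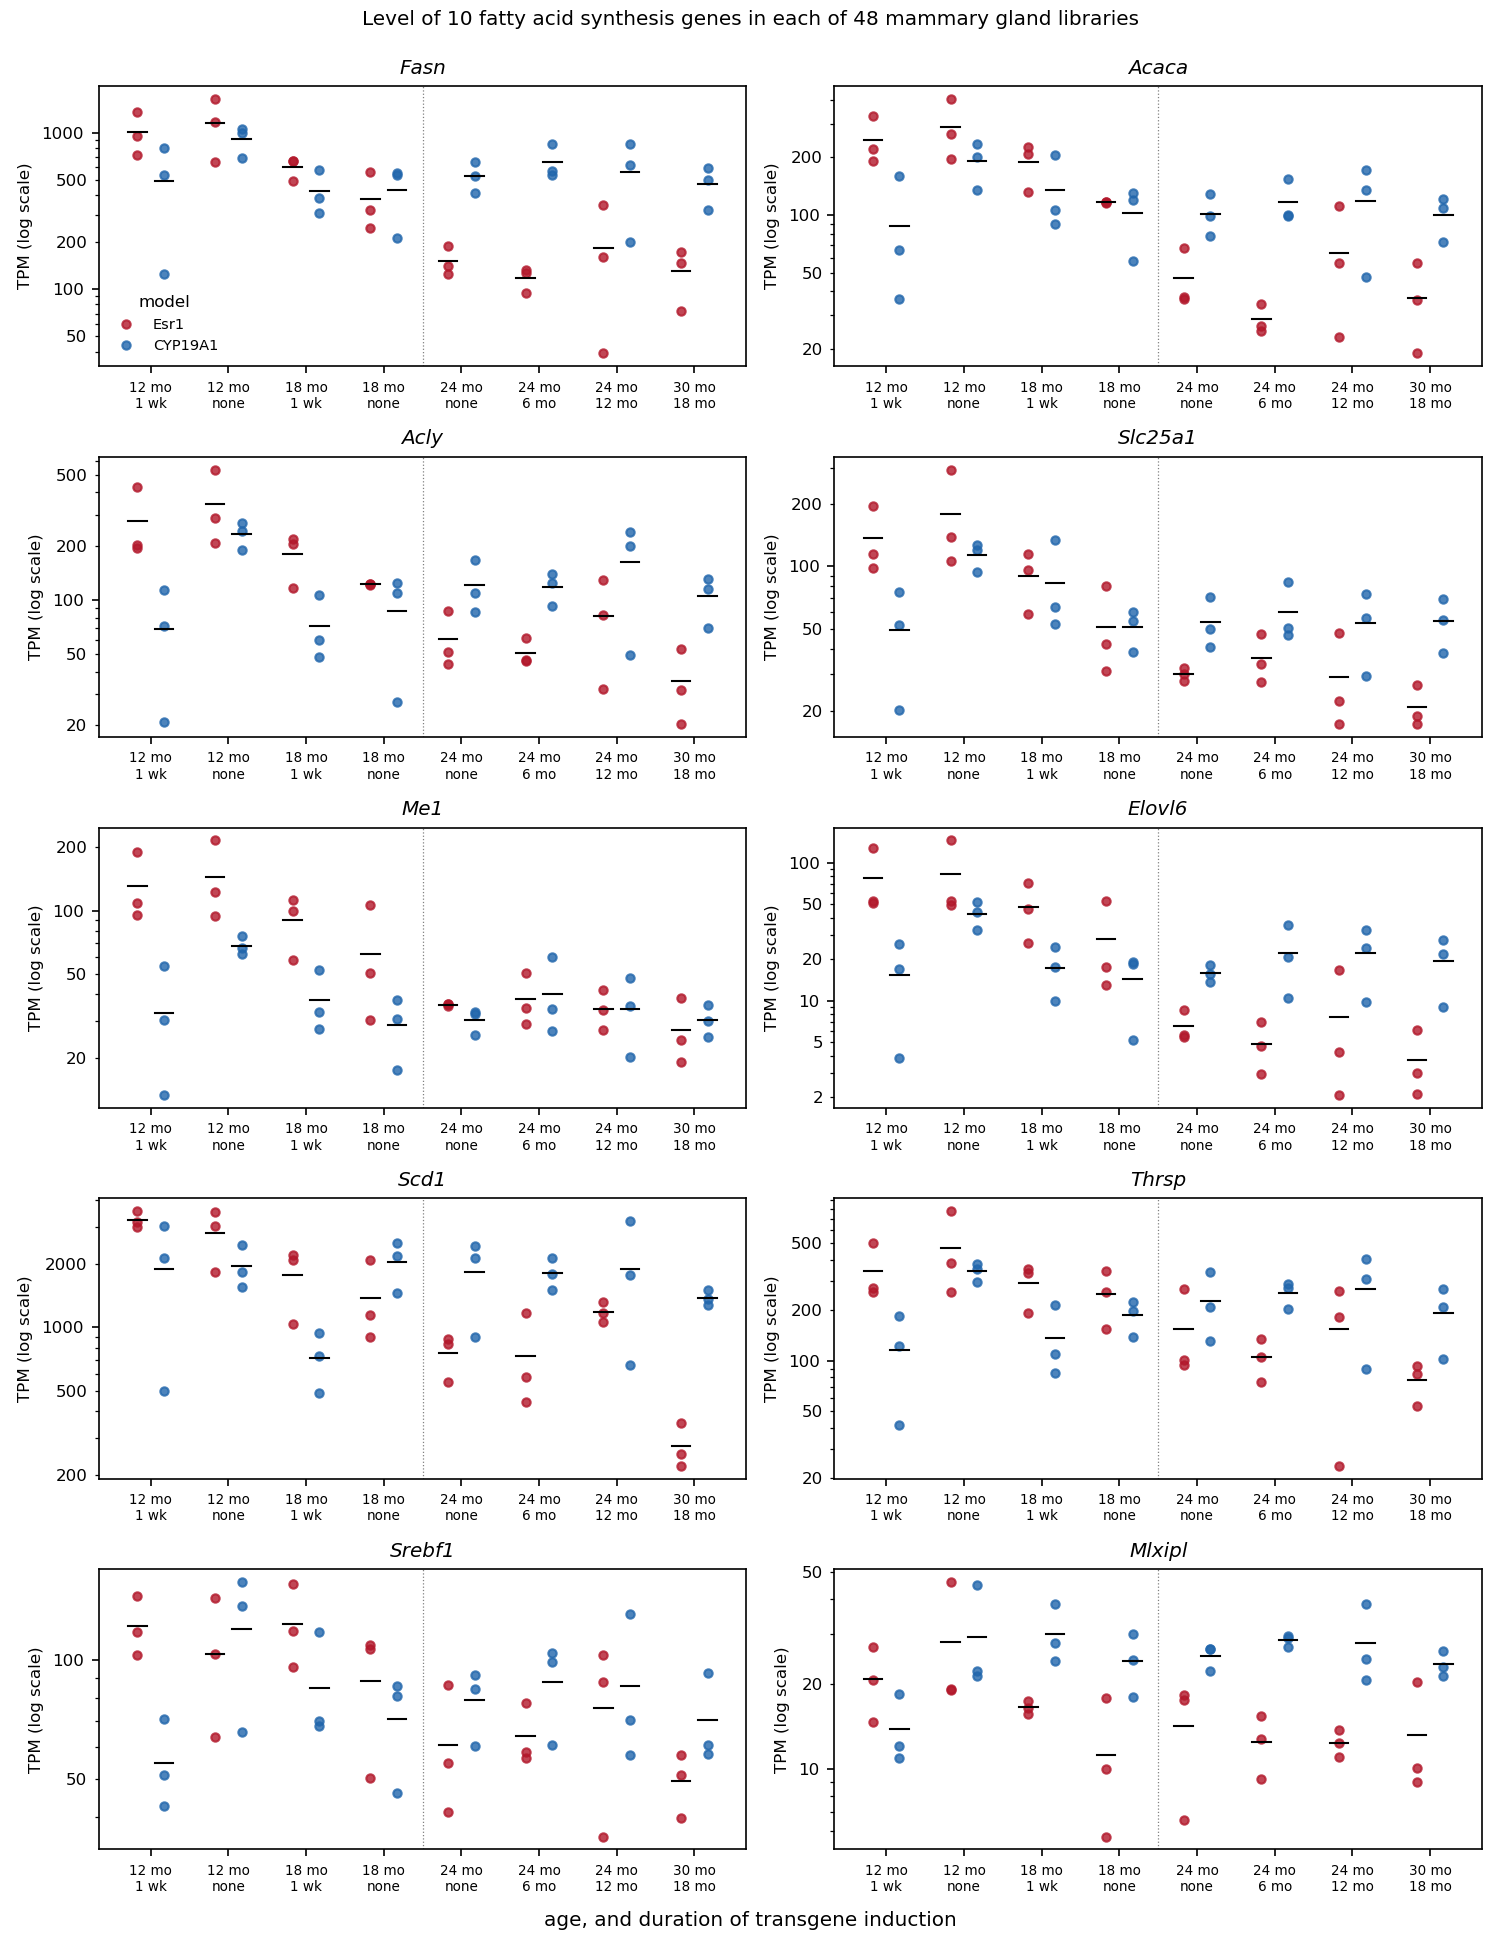
TPM (log axis) of each of the 10 genes in every library, 1 panel per gene, by age and model, with a point per library and a bar at the group mean. Acaca in the 9 Esr1 24-month libraries lies between 23.1 and 111 TPM, below each of the 12 Esr1 libraries of 12 and 18 months, while the CYP19A1 libraries of the same ages overlap.

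In the Esr1 model the pathway was much lower in the old glands. The 9 libraries of 24 months (3 uninduced and 6 induced for 6 or 12 months) were compared with the 12 libraries of 12 and 18 months (6 uninduced and 6 induced for 1 week), as the mean of 3 groups minus the mean of 4. All 10 genes were lower in sign and 9 passed the test (adjusted p under 0.05 over all 20209 genes), where 10.4% of all tested genes were lower at that threshold and 15.8% passed in either direction. The median log2 change of the 10 genes was -1.54, against -0.14 over all tested genes. These bulk values cannot tell fewer fat-making cells from less RNA per cell.

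The carrier and the enzymes that make malonyl-CoA came down together. Acaca lay at 23.1, 36.4 and 111 TPM (lowest, median and highest library) at 24 months, against 116, 202 and 405 TPM at 12 and 18 months. In TPM as deposited it was the only 1 of the 10 whose 24-month libraries all lay below the younger ones, as 0.277% of tested genes did, and its log2 change was -2.23 (SE 0.26, adjusted p = 1.5e-07). After median-of-ratios scaling the ages overlapped for Acaca, with a highest 24-month value of 102 and a lowest younger value of 88.3. After protein-coding scaling these were 338 and 327. Acly lay at 31.8, 51.2 and 130.2 TPM at 24 months, against 116, 204 and 537 TPM at the younger ages (log2 change -1.77, SE 0.30, adjusted p = 8.9e-05). A single 24-month library, 1 of those induced for 12 months, reached the younger range. Slc25a1, the carrier that feeds Acly, lay at 17.3, 30.0 and 47.3 TPM at 24 months, against 31.2, 103 and 294 TPM (log2 change -1.64, SE 0.24, adjusted p = 6.6e-06).

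Fasn and Elovl6, which make and lengthen palmitate, showed the 2 largest falls of the 10. Fasn lay at 39.0, 133 and 347 TPM at 24 months, against 246, 661 and 1647 TPM at 12 and 18 months (log2 change -2.38, SE 0.31, adjusted p = 1.1e-06). The highest 24-month Fasn library, also induced for 12 months, was the one that lay within the younger range. Elovl6 lay at 2.08, 5.51 and 16.6 TPM at 24 months, against 13.1, 51.6 and 145 TPM (log2 change -2.90, SE 0.34, adjusted p = 9.1e-08). Scd1, the desaturase after Elovl6, lay at 445, 880.1 and 1318 TPM at 24 months, against 900.4, 2145 and 3558 TPM (log2 change -1.32, SE 0.27, adjusted p = 0.00082). Its ranges overlapped.

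Me1, malic enzyme, lay at 27.2, 35.4 and 50.5 TPM at 24 months, against 30.2, 103 and 216 TPM at 12 and 18 months (log2 change -1.39, SE 0.23, adjusted p = 5.1e-05). Thrsp lay at 23.8, 105 and 268 TPM, against 154, 301 and 776 TPM (log2 change -1.44, SE 0.33, adjusted p = 0.0030). Both overlapped between the ages, and for Me1 the overlap involved 2 of the younger libraries, both of uninduced 18-month glands, at 50.4 and 30.2 TPM.

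The 2 transcription factors moved least. Srebf1 lay at 35.7, 58.6 and 103 TPM at 24 months, against 50.3, 108 and 156 TPM at 12 and 18 months (log2 change -0.72, SE 0.21, adjusted p = 0.019). It did not pass without replicate 1 of the uninduced 24-month glands (-0.64, adjusted p = 0.054) or without replicate 1 of those induced for 12 months (-0.56, adjusted p = 0.075). Mlxipl lay at 6.56, 12.8 and 18.3 TPM, against 5.74, 17.6 and 45.9 TPM, and did not pass (log2 change -0.44, 95% interval -0.83 to -0.04, adjusted p = 0.117). Its lowest value of all, 5.74 TPM, was in an uninduced 18-month gland.

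The same 9 genes passed after rescaling by median-of-ratios factors or to the sum of nuclear protein-coding genes. The choice of younger glands moved the count: against the 18-month groups alone 6 passed, with Scd1 (-0.82), Thrsp (-1.18) and Srebf1 (-0.66) below the threshold, and against the uninduced 12- and 18-month groups alone 8 passed. The last 2 settings and the comparisons of the models at 1 age given further on were added after the values had been seen.

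**Figure D2:**
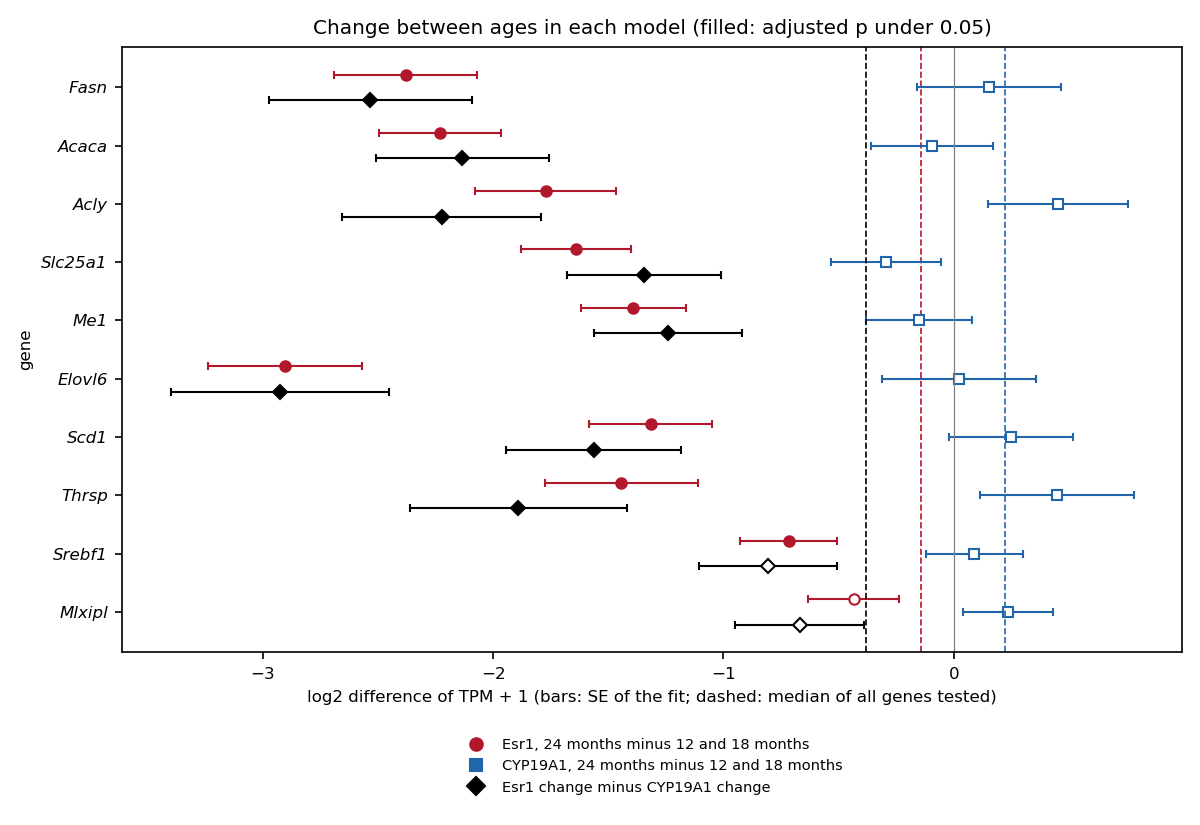
Log2 difference of TPM + 1 of each gene at 24 months against 12 and 18 months in the Esr1 model (circles) and the CYP19A1 model (squares), and the Esr1 change minus the CYP19A1 change (diamonds), with bars of 1 SE and dashed lines at the median of all genes. Filled marks passed the test; 9 circles are filled, no square is, and the squares lie between -0.29 and 0.45.

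In the CYP19A1 model none of the 10 genes passed in the same comparison of 9 with 12 libraries (limma, adjusted p between 0.308 and 0.973), and 0 of 10 had an unadjusted p under 0.05. Of all tested genes, 19.9% passed, and 6646 of 20209 had an unadjusted p under 0.05. Fasn lay at 199.5, 573 and 846 TPM at 24 months, against 125, 544 and 1049 TPM at 12 and 18 months (log2 change 0.15, 95% interval -0.48 to 0.79). Elovl6 lay at 9.85, 18.1 and 35.2 TPM at 24 months, against 3.83, 18.8 and 52.1 TPM (0.02, 95% interval -0.66 to 0.70). The medians differ little and the ranges overlap throughout.

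Acaca changed by -0.10 (95% interval -0.63 to 0.44), Slc25a1 by -0.29 (-0.78 to 0.19) and Me1 by -0.15 (-0.61 to 0.31). Acly changed by 0.45 (-0.17 to 1.07), Thrsp by 0.45 (-0.23 to 1.12) and Scd1 by 0.25 (-0.29 to 0.79). Srebf1 changed by 0.09 (-0.34 to 0.52) and Mlxipl by 0.23 (-0.16 to 0.63). The intervals allow changes of either sign for each gene. The signs depended on the scaling, with 3 of 10 lower as deposited and 8 of 10 lower under either rescaling, which removed a shift of 0.22 in the median of all genes. Genes that collect ribosomal RNA reads held a median of 0.0720% of TPM in the 24-month CYP19A1 libraries, against 11.2% in those of 12 and 18 months. No younger library lay near that median. In 6 of them these genes held from 22.2% to 67.2% of TPM, and in the rest 0.255% or less.

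The difference between the models in this age change was tested directly. It was negative for all 10 genes, that is, a larger fall in the Esr1 model, and 8 passed, where 6.98% of all tested genes were lower at the threshold and 7.51% passed in either direction. Elovl6 had the largest difference on the log2 scale, -2.92 (SE 0.47, adjusted p = 0.00021). Fasn followed with -2.53 (SE 0.44, adjusted p = 0.00053), Acly with -2.22 (SE 0.43, adjusted p = 0.0020) and Acaca with -2.13 (SE 0.37, adjusted p = 0.00057). Thrsp (-1.89), Scd1 (-1.56), Slc25a1 (-1.35) and Me1 (-1.24) passed with adjusted p between 0.014 and 0.022. Srebf1 (-0.81, adjusted p = 0.071) and Mlxipl (-0.67, adjusted p = 0.094) did not.

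The median of all genes in this difference was -0.38, and either rescaling brought it within 0.09 of 0. Of the genes that passed, 93.0% were lower as deposited, 35.3% after median-of-ratios scaling and 48.7% after protein-coding scaling. Under either rescaling 4 of the 10 passed, Fasn, Acaca, Acly and Elovl6. Without the 9 libraries rich in ribosomal RNA 3 passed, Fasn, Acaca and Elovl6, where 0.203% of all genes were lower at the threshold. Against the 18-month groups alone 3 passed (Fasn, Acly and Elovl6), and against the uninduced younger groups alone 1 (Elovl6).

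**Figure D3:**
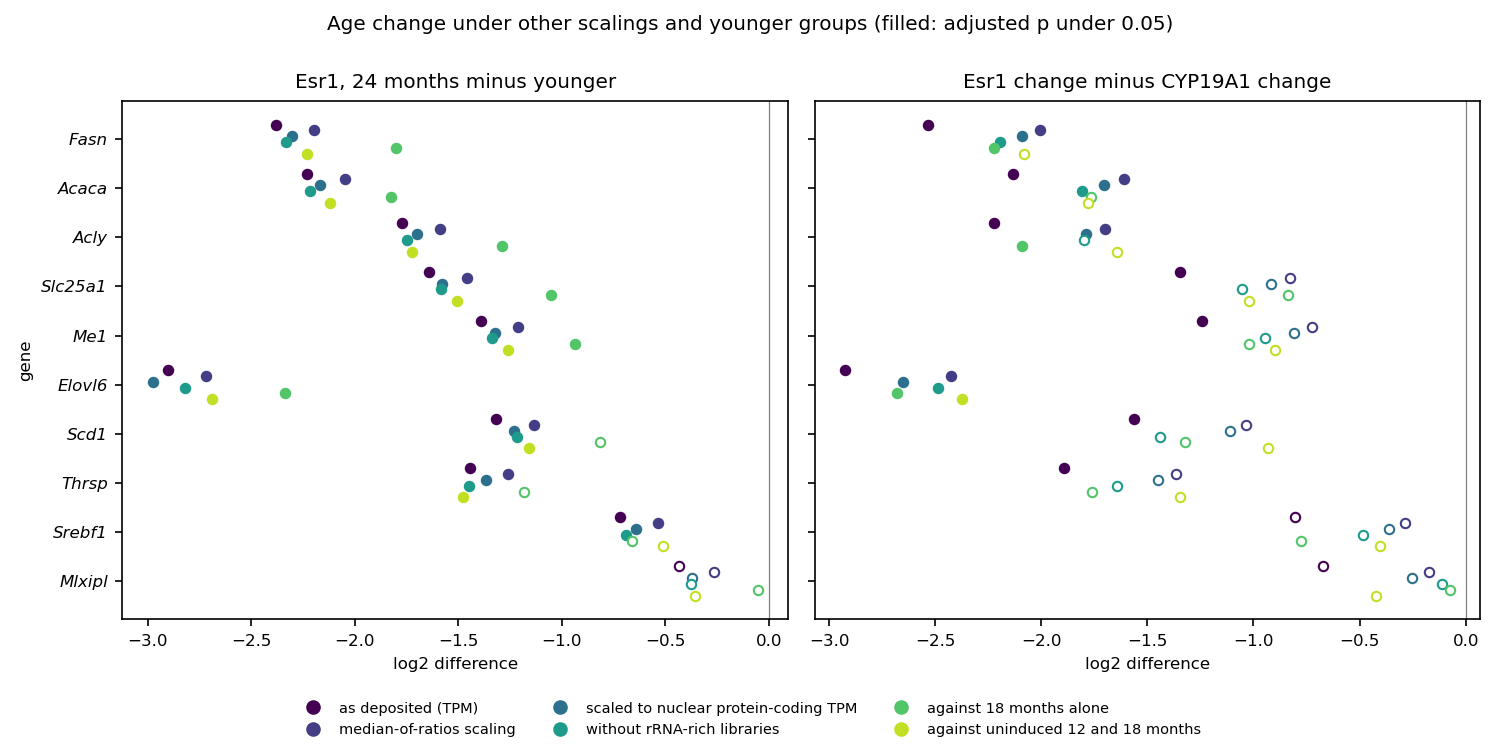
Log2 difference for each gene under 6 settings, marked by colour, of the Esr1 24-month glands against younger ones (left) and of the Esr1 change minus the CYP19A1 change (right). Filled marks passed the test; on the right Elovl6 is filled under all 6 settings and Srebf1 and Mlxipl under none.

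Among uninduced glands alone, each group of 3 libraries gives the age course. In the Esr1 model, Acaca lay at 405, 267 and 196 TPM at 12 months, at 116, 117 and 117 TPM at 18 months, and at 37.2, 36.4 and 67.6 TPM at 24 months. The 3 ages did not overlap. Acly lay at 537, 287 and 209 TPM at 12 months, at 124, 123 and 121 TPM at 18 months, and at 51.2, 44.2 and 87.1 TPM at 24 months, again with no overlap, and Fasn at 1647, 1177 and 654 TPM, then 322, 246 and 559 TPM, then 188, 125 and 141 TPM. Between 24 and 12 months 6 genes passed (Fasn, Acaca, Acly, Elovl6, Slc25a1 and Me1, log2 changes from -3.30 to -1.89, adjusted p from 0.0022 to 0.028), where 0.247% of all genes were lower at the threshold and 0.574% passed in either direction. The other 4 (Scd1, Thrsp, Srebf1 and Mlxipl) had changes between -1.86 and -0.75 and adjusted p between 0.078 and 0.701. Groups did not overlap for 8 genes, against 8.61% of all genes. These libraries are part of the larger comparison above.

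Only 2 genes passed there without replicate 1 of the uninduced 12-month glands, the library with the highest level of 8 of the 10 genes in that group, and 4 without replicate 2 of that group or without replicate 1 or 2 of the 24-month group. None passed in a fit of those 6 libraries alone. At 18 against 12 months 0 of 10 passed in limma, where 0% of all genes did, with 8 at an unadjusted p under 0.05, as were 558 of all 20209 genes, and 5 not overlapping, against 4.17% of all genes. At 24 against 18 months 0 of 10 passed in limma, where 0.336% of all genes did, with 3 at an unadjusted p under 0.05, as were 1490 of 20209, and 5 not overlapping, against 3.59%.

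In uninduced CYP19A1 glands Elovl6 lay at 32.4, 44.0 and 52.1 TPM at 12 months, at 5.22, 19.2 and 18.5 TPM at 18 months, and at 15.7, 18.1 and 13.7 TPM at 24 months. Both later ages lay below the first and overlapped each other. At 18 against 12 months 7 genes did not overlap (Fasn, Acaca, Acly, Elovl6, Slc25a1, Me1 and Thrsp), where 0.242% of all genes were lower in that way. At 24 against 12 months 6 did not (the same list without Thrsp), against 0.381%. None of the 10 passed in either, where 0.0099% and 4.24% of all genes did, with 5 and 3 at an unadjusted p under 0.05 (limma, smallest adjusted p 0.746 and 0.136), as were 1133 and 2961 of all 20209 genes. Scd1 did not share the order of Elovl6, with means of 1946, 2047 and 1822 TPM at 12, 18 and 24 months. At 24 against 18 months 0 of 10 passed in limma, 0 had an unadjusted p under 0.05, against 735 of 20209, and none was without overlap, where 0.0693% of all genes passed. The largest change at 24 against 12 months was that of Elovl6 (-1.36, SE 0.62, adjusted p = 0.285). The difference between the models in this uninduced change was negative for all 10 genes, and 0 passed in limma (adjusted p between 0.766 and 0.884, 5 at an unadjusted p under 0.05, as were 1311 of all 20209 genes), where 0.0396% of all genes passed.

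Induction of either transgene was followed by no change that passed the test in the 10 genes. Across the 8 comparisons of induced with uninduced glands of 1 age and model, 0 of 10 genes passed (limma, smallest adjusted p 0.548), where at most 0.0198% of all genes did. An unadjusted p under 0.05 was found for 9 genes in CYP19A1 glands at 12 months, as for 1370 of all 20209 genes, for 1 in those at 18 months, as for 295 of 20209, and for 0 in the other comparisons. After 1 week of Esr1 induction at 18 months the log2 changes of the 10 genes were all positive, from 0.24 to 0.90, and those at 12 months ran from -0.37 to 0.29. Acaca lay at 133, 208 and 227 TPM after that week at 18 months, against 116, 117 and 117 TPM without, and did not overlap, as for 4.26% of all genes in that direction. After 6 months of Esr1 induction Acaca lay at 24.8, 34.4 and 26.4 TPM, against 37.2, 36.4 and 67.6 TPM without (log2 change -0.66, adjusted p = 1), without overlap, as for 0.846% of all genes in that direction. Ribosomal RNA genes held 33.4% of TPM in the library at 26.4 TPM. After median-of-ratios scaling Acaca overlapped in each of these 2 Esr1 comparisons, 1 week at 18 months and 6 months at 24 months.

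After 12 months of Esr1 induction Scd1 lay at 1057, 1318 and 1169 TPM, against 554, 880.1 and 831 TPM in uninduced 24-month glands (log2 change 0.67, adjusted p = 1), without overlap, as for 5.42% of all genes in that direction. In the CYP19A1 model, Scd1 lay at 936, 733 and 489 TPM after 1 week at 18 months, against 1450.5, 2181 and 2511 TPM without (log2 change -1.52, SE 0.50, adjusted p = 1). Its groups did not overlap, as for 1.66% of all genes in that direction, and the changes of the other 9 genes lay between -0.53 and 0.60. After 6 or 12 months of CYP19A1 induction the changes lay between -0.14 and 0.33, and Mlxipl alone did not overlap, at 29.1, 29.5 and 27.1 TPM after 6 months, against 26.7, 26.6 and 22.2 TPM without, where 2.20% of all genes were higher in that way. These Mlxipl groups overlapped after median-of-ratios scaling.

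After 1 week of CYP19A1 induction at 12 months all 10 genes were lower in sign. Acly lay at 113, 20.9 and 71.9 TPM, against 191, 242 and 270.3 TPM without (log2 change -2.04, SE 0.56, adjusted p = 0.548). Groups did not overlap for 6 genes (Acly, Elovl6, Slc25a1, Me1, Thrsp and Mlxipl), as for 1.36% of all genes in that direction. After median-of-ratios scaling the groups overlapped for each of these 6 genes. The median change was -1.29 over the 10 genes and -0.32 over all genes. Ribosomal RNA genes held between 36.7% and 49.8% of TPM in the 3 induced libraries, and between 0.122% and 67.2% in the 3 uninduced ones. Without the uninduced library at 67.2%, replicate 1, 8 of the 10 passed, together with 61.4% of all genes in the same direction. After median-of-ratios scaling the median of the 10 genes was -0.89 and that of all genes 0.02, and 0 passed. The models did not differ detectably in their response to 1 week of induction (0 of 10, differences from 0.49 to 1.26, adjusted p = 0.548 for each, 3 at an unadjusted p under 0.05, as were 1297 of all 20209 genes, and 0% of all genes passing) or to long induction (0 of 10, from -0.61 to 0.27, 0 at an unadjusted p under 0.05, against 236 of 20209, and 0% of all genes passing). Without the same CYP19A1 library 2 passed in the 1-week difference, Scd1 and Srebf1, together with 34.6% of all genes.

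At 30 months after 18 months of induction, 0 of 10 genes passed in the Esr1 model (limma), and Scd1 alone of the 10 had an unadjusted p under 0.05, as had 3208 of all 20209 genes. Scd1 lay at 353, 252 and 221 TPM at 30 months, against 1057, 1318 and 1169 TPM at 24 months after 12 months of induction. The groups did not overlap, yet its adjusted p was 0.052 (log2 change -2.12, SE 0.50), where 0.139% of all genes passed, and 35.6% of all genes were lower with no overlap in this comparison, whose median over all genes was -0.36. It passed with the muscle score as a covariate and without the libraries rich in ribosomal RNA. Of the other 9 genes Acly changed most (-1.08, adjusted p = 0.326) and Mlxipl least (0.00, adjusted p = 1). All 10 were lower in sign as deposited and 4 after median-of-ratios scaling. In the CYP19A1 model Scd1 lay at 1363, 1273 and 1511 TPM at 30 months, against 3206, 1777 and 662 TPM at 24 months. There 0 of 10 genes passed in limma and 0 had an unadjusted p under 0.05 (changes from -0.39 to 0.08), against 332 of 20209, where 0% of all genes passed. Age and length of induction change together here and cannot be told apart.

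The models were also set against each other at 1 age. At 24 months 5 of the 10 genes passed and were lower in the Esr1 model, where 2.48% of all genes were and 4.24% passed in either direction. Fasn lay at 39.0, 133 and 347 TPM in the 9 Esr1 libraries, against 199.5, 573 and 846 TPM in the 9 CYP19A1 libraries (log2 difference -2.03, SE 0.33, adjusted p = 6.0e-05). Acaca differed by -1.36 (adjusted p = 0.0017), Elovl6 by -1.57 (adjusted p = 0.0049) and Scd1 by -0.998 (adjusted p = 0.035). Mlxipl lay at 6.56, 12.8 and 18.3 TPM in Esr1 glands, against 20.7, 26.7 and 38.3 TPM in CYP19A1 glands (-1.05, adjusted p = 0.0011). In TPM as deposited the models did not overlap for this glucose-responsive factor, as for 0.668% of all genes in that direction, although its age change had not passed in either model. They overlapped after median-of-ratios scaling, where Mlxipl in Esr1 glands reached 19.4 and in CYP19A1 glands began at 17.1. After protein-coding scaling these limits were 72.6 and 60.3.

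Me1 differed by 0.09 (95% interval -0.41 to 0.58) and Srebf1 by -0.36 (-0.81 to 0.10), while Acly (-1.04), Slc25a1 (-0.80) and Thrsp (-0.996) had adjusted p between 0.061 and 0.119. After protein-coding scaling 7 passed, with Acly and Slc25a1 added, and after median-of-ratios scaling 5. Scd1 lost its call in 12 of the 18 fits that left out 1 library. The count was 8 without the second replicate of 12-month Esr1 induction, and also 8 without the third replicate of 12-month CYP19A1 induction.

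At 12 and 18 months 6 genes were higher in Esr1 glands than in CYP19A1 glands, but 44.0% of all genes passed in that direction, 46.2% in either, and the median of all genes was 0.31. Me1 was among them, at 30.2, 103 and 216 TPM in Esr1 glands, against 13.3, 35.2 and 75.9 TPM in CYP19A1 glands (log2 difference 1.33, adjusted p = 1.7e-05). Elovl6 differed by 1.35, Acly by 1.19, Thrsp by 0.90, Acaca by 0.77 and Slc25a1 by 0.55. Fasn (0.50), Scd1 (0.57), Srebf1 (0.45) and Mlxipl (-0.38) did not pass (adjusted p between 0.057 and 0.15). After median-of-ratios scaling 3 genes passed, Elovl6 and Me1, higher in Esr1 glands, and Mlxipl, lower. At 30 months Scd1 alone passed, at 353, 252 and 221 TPM in Esr1 glands, against 1363, 1273 and 1511 TPM in CYP19A1 glands (-2.35, adjusted p = 0.010), where 0.386% of all genes were lower and 0.52% passed in either direction. Libraries of the models did not overlap at 30 months for 9 genes, all but Me1, as for 24.6% of all genes in that direction. Ribosomal RNA genes held 50.3% of TPM in replicate 3 of the Esr1 group. After median-of-ratios scaling Thrsp, Srebf1 and Mlxipl overlapped as well, and after protein-coding scaling Thrsp did. Differences of the 9 genes other than Scd1 ran from -2.06 (Elovl6) to -0.19 (Me1), with adjusted p between 0.169 and 0.856. Scd1 did not pass without replicate 2 or 3 of the Esr1 group, without replicate 3 of the CYP19A1 group, or with the adipocyte score as a covariate.

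Averaged over uninduced glands of 12, 18 and 24 months, 0 of 10 genes passed, with 2 at an unadjusted p under 0.05, as were 3583 of all 20209 genes, where 2.95% of all genes passed. Those 2 were Mlxipl, lower in Esr1 glands (-0.72, adjusted p = 0.051), and Me1, higher (0.73, adjusted p = 0.092). Mlxipl passed after either rescaling and in 7 of the 18 fits that left out 1 library, and Me1 in 1 other.

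Genes next to the pathway were counted in the same Esr1 comparison of 24 months with 12 and 18 months. Of 15 genes of citrate and NADPH supply 3 were lower and 0 higher, where 10.4% of all genes were lower, with a median of -0.31, against -0.14 over all genes. After median-of-ratios scaling 3 were lower and 1, G6pdx, higher, and after protein-coding scaling 5 were lower, with Pgd and Taldo1 added. Acss2, which makes acetyl-CoA from acetate in the cytosol, changed by -1.65 (adjusted p = 1.2e-06), Tkt, the transketolase of the pentose phosphate pathway, by -1.40 (adjusted p = 0.00018), and Pcx, pyruvate carboxylase, by -0.99 (adjusted p = 0.00078). Of 15 genes of elongation and desaturation 14 could be tested, and 6 were lower and 1 higher, with a median of -0.55, and 7 were lower and 1 higher after either rescaling. The lower ones named by size were the elongase Elovl7 (-0.99) and the polyunsaturated fatty acid desaturases Fads2 (-0.98) and Fads1 (-0.84), and the higher one was Fads3 (1.08). Scd2, a second stearoyl-CoA desaturase, changed by -0.75 (adjusted p = 0.035).

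Later and regulatory steps had list medians nearer to 0. Of 10 genes of fatty acid activation and triglyceride assembly 2 were lower, Agpat2 (-0.76) and Acsl5 (-0.64), and 1 was higher, Mogat2 (0.53), with a median of -0.02. Of 15 regulators and paralogs 2 were lower, Insig1 (-0.70), which holds SREBP in the endoplasmic reticulum, and Mbtps2 (-0.46), a protease that releases it, with a median of -0.15, close to the -0.14 of all genes. After median-of-ratios scaling Agpat2 and Insig1 did not pass, and the medians of both lists were above 0 (0.16 and 0.03). Of the regulators, Nr1h3 was higher under either rescaling, and Mlx was lower after protein-coding scaling, where Insig1 still passed. In the difference between the models 8 of the 15 supply genes were lower, where 6.98% of all genes were, with a median of -0.76, against -0.38 over all genes. Acss2 (-1.77) and Tkt (-1.76) led them, and the count was 1 (Acss2) after median-of-ratios scaling and 2 (Acss2 and Tkt) after protein-coding scaling. In 24-month glands of the 2 models Acss2 (-0.97), Pcx (-0.72), Scd2 (-1.16) and Mid1ip1 (-0.86), a partner of Thrsp, were lower in Esr1 glands, where 2.48% of all genes were. Pcx and Mid1ip1 did not pass after median-of-ratios scaling. Olah, the thioesterase that ends synthesis at medium chain lengths in mammary epithelium, was higher (1.83, adjusted p = 0.027).

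**Figure D4:**
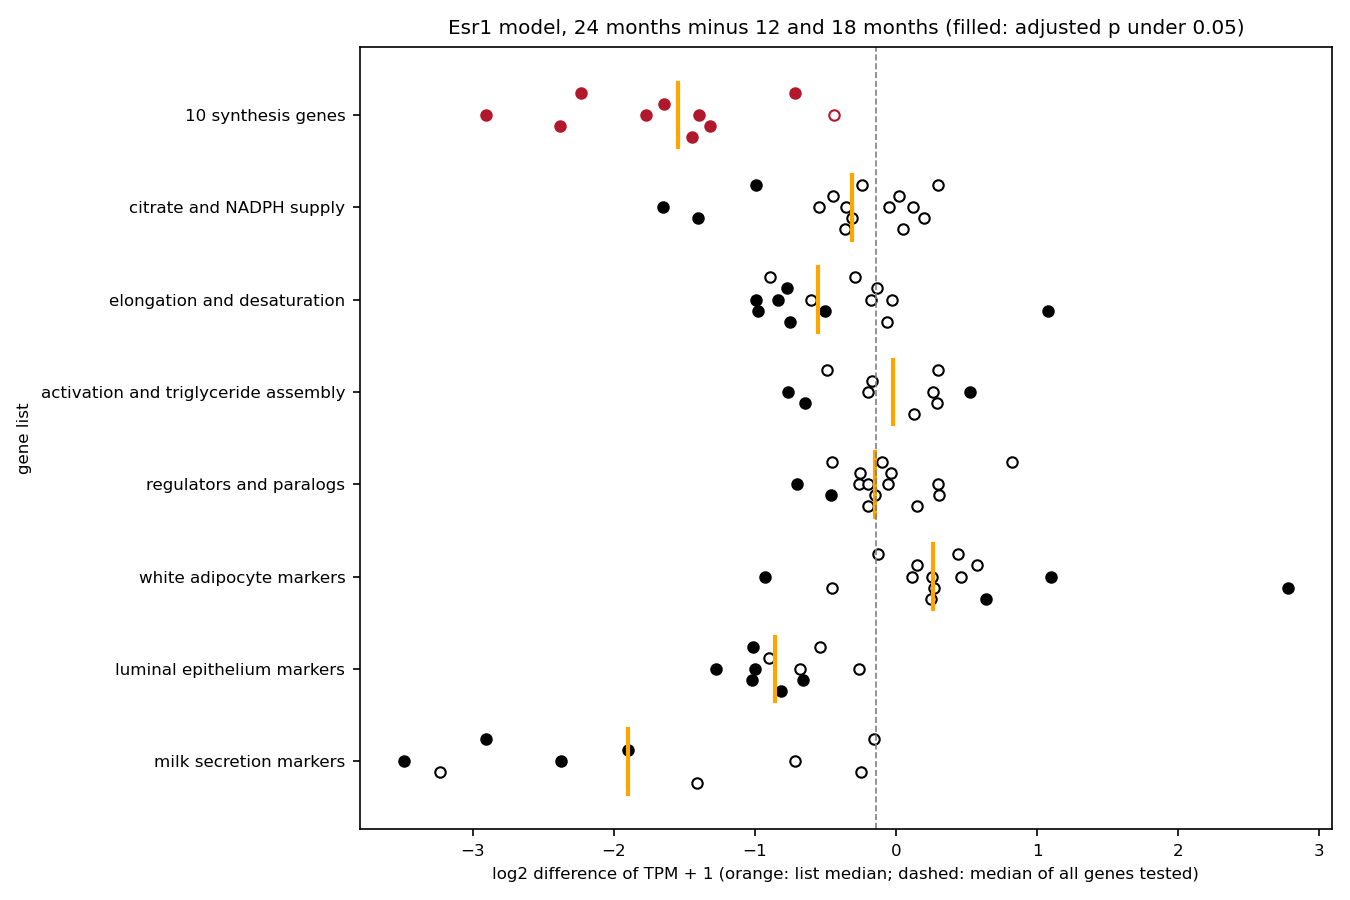
Log2 difference of TPM + 1 at 24 months against 12 and 18 months in the Esr1 model, with a point per gene, for the 10 synthesis genes, 4 related lists and 3 lists of cell type markers (filled where the gene passed, orange bar at the list median, dashed line at the median of all genes). The median of the synthesis genes is -1.54, that of the milk secretion genes -1.90 and that of the white adipocyte markers 0.26.

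Counts of white adipocyte markers depended on the scaling in the Esr1 comparison. Of 14 white adipocyte markers 3 were higher (Lep 2.78, Cidec 1.10 and Fabp4 0.64) and 1 was lower (Cfd, -0.93), where 15.8% of all genes passed, and the median was 0.26. After median-of-ratios scaling 7 were higher and 0 lower, where 32.0% of all genes passed, and after protein-coding scaling 6 were higher and 1 lower, where 24.7% did. Their summed level lay at 4728, 6146 and 8599 TPM at 24 months, against 2964, 5071 and 7929 TPM at 12 and 18 months. With the adipocyte score as a covariate 10 of the 10 synthesis genes passed, where 36.8% of all genes were lower. Of 10 luminal epithelial markers 6 were lower, where 10.4% of all genes were, with a median of -0.86, and their summed level lay at 183, 383 and 716 TPM, against 165, 729.6 and 1006 TPM. Of 9 milk secretion genes 4 were lower, also against 10.4%, with a median of -1.90 and summed levels of 114, 9095 and 49168 TPM, against 3045, 12117 and 60089 TPM. The part of the epithelium in the fall of the synthesis genes was not tested.

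Of 10 skeletal muscle markers 3 were higher in old Esr1 glands and all 10 in old CYP19A1 glands, with medians of 1.43 and 2.49, where 15.8% and 19.9% of all genes passed. After either rescaling the count was 5 in Esr1 glands and 10 in CYP19A1 glands. With the muscle score as a covariate 9 of the 10 synthesis genes passed in the Esr1 model, Mlxipl in and Srebf1 out, where 2.77% of all genes were lower at the threshold. Of the brown adipocyte (7 tested), macrophage (7), B cell (6), fibroblast (7) and skin (9 tested) markers, 0, 0, 2, 1 and 2 were higher in old Esr1 glands and 1 skin marker was lower. The B cell count became 4 after median-of-ratios scaling and 3 after protein-coding scaling. Brown adipocyte Cox7a1 was higher under either rescaling and macrophage Trem2 after median-of-ratios scaling. After protein-coding scaling 3 skin markers were higher. In the difference between the models 0 markers of any cell type list passed as deposited. After median-of-ratios scaling Cidec and Cd36, both of the white adipocyte list, were higher there, and Cidec alone after protein-coding scaling. In 24-month glands compared between the models, 1 milk secretion gene, Glycam1, was higher in the Esr1 model (5.37, adjusted p = 0.0037) and 1 luminal marker, Foxa1, lower (-0.90, adjusted p = 0.026). Foxa1 is a low gene here, from 0.18 to 5.53 TPM over the libraries. The luminal list median was positive after rescaling, 0.53 by median of ratios and 0.47 by protein-coding genes. Luminal Elf5 was then higher under either rescaling, and Cldn3 and the milk gene Wap after median-of-ratios scaling. Of the white adipocyte markers Cfd (-1.10) and Slc2a4 (-0.68) were lower in Esr1 glands of 24 months as deposited, and Slc2a4 did not pass after median-of-ratios scaling, where Lep was higher.

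**Figure D5:**
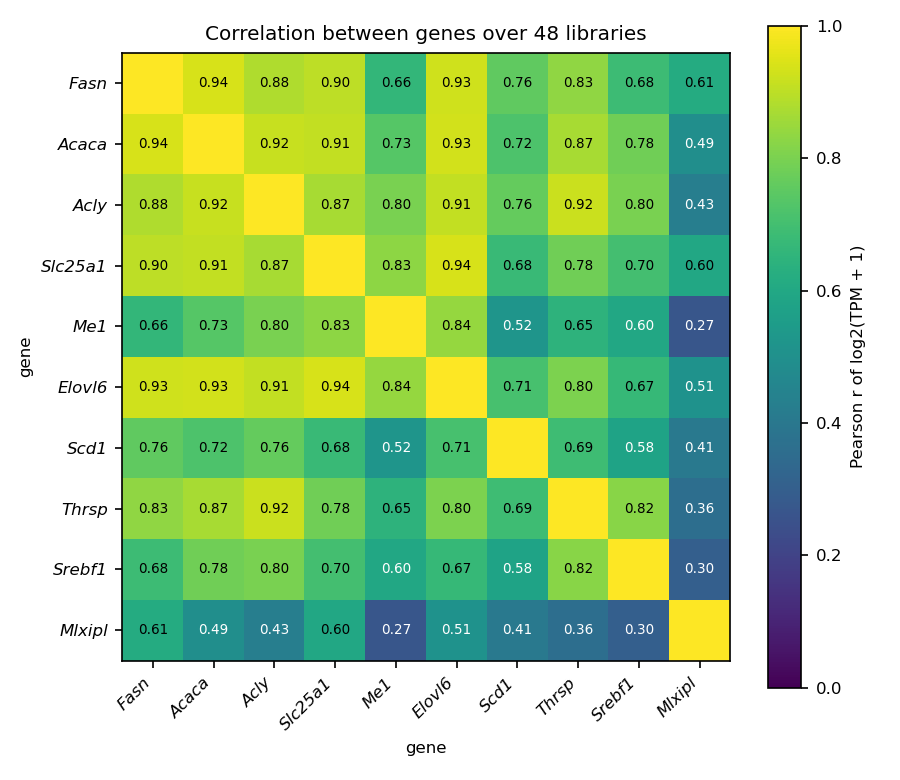
Pearson correlation of log2(TPM + 1) over the 48 libraries for each pair of the 10 genes, as a colour scale (yellow high, purple low) with the value in each cell. Elovl6 with Slc25a1 and Fasn with Acaca reach 0.94, and the row of Mlxipl is the darkest, with a median of 0.43.

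Over the 48 libraries the genes varied together, given here as a description since libraries share model, age and the composition of the gland. Pearson's r over the 45 pairs ran from 0.27 to 0.94 with a median of 0.76, and 9 pairs reached 0.9. The highest was that of Elovl6 with Slc25a1 (0.94, and 0.91 after each group's mean was taken out), followed by Fasn with Acaca (0.94, and 0.90). Me1 and Mlxipl had the lowest (0.27). Within groups the median over pairs was 0.63. The median r with the other members was 0.87 for both Acaca and Acly, 0.69 for Scd1, 0.68 for Srebf1 and 0.43 for Mlxipl.

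The protein-coding genes most like the mean of the 10 standardised profiles, among 11603 candidates, were Acss2 (r = 0.94) and Tkt (0.93). Pygl, glycogen phosphorylase (0.90), Parm1 (0.90), Pcx (0.86), Dhrs7 (0.85), Agpat2, an acyltransferase of triglyceride synthesis (0.85), and 1700037H04Rik (0.85) came next. For each of the 8, r stayed at 0.81 or above within the 24 libraries of 24 and 30 months and at 0.84 or above within the 24 of 12 and 18 months.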

How the data were processed

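Whole thoracic mammary glands were flash frozen, and total RNA depleted of ribosomal RNA was sequenced on a NextSeq 550, per the labels' protocols. The authors deposited 1 table of TPM, transcript levels scaled to a fixed total per library, for 48 libraries. The submitters' processing notes name STAR 2.7.9a, RSEM 1.3.1 and build mm10, besides Trim Galore 0.6.5 and FastQC 0.11.9, without order or settings. TPM keeps no depth, so the read depth behind a value is unknown, and in TPM a library rich in ribosomal RNA shows lower values of other genes.

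From these values, log2(TPM + 1) was tested with limma 3.58.1 in R 4.3.3, in 1 fit with a mean for each of the 16 groups and a variance trend, over 20209 of 55487 genes, those that reached 1 TPM in 3 libraries or more. There were 26 comparisons. P-values were adjusted by Benjamini-Hochberg over all genes tested, within each comparison, at a threshold of 0.05, and changes are on the log2(TPM + 1) scale, which understates those of low genes. The procedure was tested on simulated data for the Esr1 age comparison, with noise drawn independently for each gene. That setting lacks the variation that genes share in these libraries. The rule for named genes took all 10 synthesis genes, and where a comparison names fewer, the others are given as a range or a count. Of each related or marker list, up to 4 genes that passed with the largest change are named, and Scd2 in the Esr1 age change beyond that, chosen after its value was seen. The 8 protein-coding genes most like the 10, with a mean of at least 2 TPM, are also named. The members and lists were chosen with earlier results of these data known. Positions come from GENCODE M21, which 55094 of the identifiers match with their version. Alternatives covered scaling, pseudocount, filter, samples in the fit, a replicate block, covariates and leaving out libraries.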

Additional observations from a re-analysis of the deposited data

Results flagged for a closer look

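A direct test between the models singled out 8 genes whose change at 24 months, against 12 and 18 months, differed between Esr1 and CYP19A1 glands. The Esr1 change minus the CYP19A1 change was -2.92 on the log2 scale for Elovl6, -2.53 for Fasn, -2.22 for Acly and -2.13 for Acaca. It was -1.89 for Thrsp, -1.56 for Scd1, -1.35 for Slc25a1 and -1.24 for Me1. The first 4 also passed after both rescalings and the other 4 after neither. The share of TPM in ribosomal RNA genes moved with this comparison, with a median of 0.0333% in the 12- and 18-month Esr1 libraries and 11.2% in those of CYP19A1. The CYP19A1 median lies between 6 libraries at 22.2% or more and the rest at 0.255% or less.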

How the results depend on the processing

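The count of 9 genes in the Esr1 age change was 9 under both rescalings, a pseudocount of 0.1, no filter, a fit of the compared groups only, the replicate block and without libraries rich in ribosomal RNA, and 8 to 9 with 1 library left out. For the difference between models in that change, the count of 8 became 4 after median-of-ratios scaling, 4 after protein-coding scaling, 3 without libraries rich in ribosomal RNA, 3 against the 18-month groups alone and 1 against the uninduced younger groups alone, and ran from 8 to 10 with 1 library left out. The Esr1 uninduced 24- against 12-month count of 6 became 0 in a fit of those groups only and ran from 2 to 6 with 1 library left out. The uninduced average between models, 0, became 1 after each rescaling, 1 with the muscle score, 1 without libraries rich in ribosomal RNA and 2 with the adipocyte score, and ran from 0 to 1. At 12 and 18 months the model count of 6 became 3 after median-of-ratios scaling, and ran from 5 to 8. At 24 months the count of 5 was 5 after median-of-ratios scaling and 7 after protein-coding scaling, and ran from 4 to 8. At 30 months the count of 1 became 0 with the adipocyte score and ran from 0 to 1, and the Esr1 30- against 24-month count of 0 became 1 with the muscle score and 1 without libraries rich in ribosomal RNA. With 1 library left out, CYP19A1 induction for 1 week at 12 months ran from 0 to 8, and the 1-week difference between models from 0 to 2. Fasn in the CYP19A1 age change (0.15) turned to -0.19 after median-of-ratios scaling, -0.21 after protein-coding scaling, -0.13 without libraries rich in ribosomal RNA and -0.15 against uninduced younger groups, and ran from -0.045 to 0.36 with 1 library left out. Me1 between models at 24 months (0.09) ran from -0.024 to 0.19. The cause of these moves was not tested.

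Replicate numbers did not pair the libraries: of 360 same-numbered pairs across groups, 109 had deviations correlated above 0.1 (median r 0.0081). The replicate block changed 1 count, that of the uninduced average, which became 1. Without libraries rich in ribosomal RNA the 12-month CYP19A1 group induced for 1 week keeps no library, so comparisons that need it could not be fitted, and the mean over the groups left was used where possible. That mean, the comparisons with parts of the younger groups and those of the models at 1 age were chosen after seeing the data. Read depth is unknown, so no counting limit can be given.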
